A study of Mus musculus with 4 samples.

Results

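Imprinted genes are transcribed mainly from the copy inherited from a single parent. The genes described here are 40 imprinted genes outside the Dlk1-Dio3 cluster of chromosome 12, taken by symbol from a table of read counts with 35976 gene rows, in which all 40 had a row. They were measured by mRNA sequencing in mouse E14 embryonic stem cells, a line of 129 origin whose strain the labels write as 12910la. The knockdown group held 2 libraries from cells labelled as knocked down, in which a short hairpin RNA against Lx8-SINE B2 was expressed from a pSuper puro vector. The control group held 2 libraries from cells labelled as wild type. Every sample carried the same description of transfection and, 24 hours later, of selection for 3 days in puromycin, and the vector of the control cells is not given in the sources used here. All cells grew on gelatin in medium with serum and LIF. A single cell line was used, and the labels leave unsaid whether replicate libraries stem from separate cultures; p-values here measure only how these libraries spread, and that spread may be technical. Titles of knockdown libraries, but not those of controls, name a batch, and an effect of that batch cannot be told apart from one of the hairpin.

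Imprinting rests on stretches of DNA that are methylated in only one of the parental germ lines. After fertilization, KRAB zinc finger proteins such as ZFP57, together with TRIM28 and the maintenance methyltransferase DNMT1, keep this methylation on the one copy. Many such control regions sit at the promoter of a paternally expressed gene, where the maternal copy is methylated. In the Kcnq1 and Igf2r clusters a paternally expressed noncoding RNA, Kcnq1ot1 or Airn, silences neighbours on the same chromosome. Another class, with Sfmbt2, Gab1 and Slc38a4, is silenced on the maternal copy by histone methylation in early embryos. Cultured embryonic stem cells are known for unstable imprints that differ between lines and subclones. The names paternal and maternal below are background knowledge from mouse tissues. Counts per gene carry no allele, so whether the active or the silent copy contributed to a level was not measured.

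Windows of 300 bases around transcription starts, 250 before and 50 after, taken from RefSeq on GRCm38.p6 (also called mm10), were found for 30 of the 40 genes. The windows of 6 genes, chosen with their values known, are shown because 5 of them belong to paternally expressed genes whose levels lay higher in both knockdown libraries and whose promoters are known to lie at or near methylated control regions, and the last, Phlda2, is a maternally expressed target of such a region. Capitals mark CG, the dinucleotide that carries the methylation. Where a gene had several windows, the one with most CG is given. Zrsr1 lies at chr11:22971755-22972054 on the plus strand, Plagl1 at chr10:13090582-13090881 on the plus strand, Mest at chr6:30737800-30738099 on the plus strand, Peg3 at chr7:6730370-6730669 on the minus strand, Kcnq1ot1 at chr7:143296498-143296797 on the minus strand and Phlda2 at chr7:143502475-143502774 on the minus strand. Each is written 5′ to 3′ on its own strand.
Zrsr1: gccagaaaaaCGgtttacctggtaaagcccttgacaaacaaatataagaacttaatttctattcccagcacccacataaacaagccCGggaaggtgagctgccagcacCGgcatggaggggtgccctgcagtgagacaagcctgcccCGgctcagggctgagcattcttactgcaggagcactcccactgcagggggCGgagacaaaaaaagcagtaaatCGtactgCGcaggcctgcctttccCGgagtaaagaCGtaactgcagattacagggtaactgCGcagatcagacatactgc
Plagl1: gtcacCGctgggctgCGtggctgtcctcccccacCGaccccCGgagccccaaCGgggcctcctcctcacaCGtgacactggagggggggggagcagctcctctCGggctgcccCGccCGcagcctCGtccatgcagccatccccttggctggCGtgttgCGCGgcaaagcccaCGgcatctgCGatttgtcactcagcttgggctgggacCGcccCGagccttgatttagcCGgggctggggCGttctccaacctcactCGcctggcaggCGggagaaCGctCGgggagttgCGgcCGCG
Mest: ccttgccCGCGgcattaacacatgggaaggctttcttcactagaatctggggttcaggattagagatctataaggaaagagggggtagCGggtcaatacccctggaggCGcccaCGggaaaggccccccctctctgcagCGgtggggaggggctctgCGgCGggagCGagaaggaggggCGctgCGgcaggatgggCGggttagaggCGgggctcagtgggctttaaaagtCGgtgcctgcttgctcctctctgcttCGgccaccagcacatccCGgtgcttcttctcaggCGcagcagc
Peg3: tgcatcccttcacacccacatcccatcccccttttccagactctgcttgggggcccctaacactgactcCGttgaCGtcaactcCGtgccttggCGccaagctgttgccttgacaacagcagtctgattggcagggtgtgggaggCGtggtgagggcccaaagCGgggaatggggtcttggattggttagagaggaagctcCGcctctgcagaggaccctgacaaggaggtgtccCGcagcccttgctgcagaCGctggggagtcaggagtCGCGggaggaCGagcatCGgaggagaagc
Kcnq1ot1: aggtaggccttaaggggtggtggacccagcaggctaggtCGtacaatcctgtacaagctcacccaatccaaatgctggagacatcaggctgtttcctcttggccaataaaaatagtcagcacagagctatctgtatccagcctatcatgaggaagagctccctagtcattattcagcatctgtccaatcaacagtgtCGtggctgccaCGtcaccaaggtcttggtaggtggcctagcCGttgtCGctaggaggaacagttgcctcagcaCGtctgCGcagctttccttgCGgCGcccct
Phlda2: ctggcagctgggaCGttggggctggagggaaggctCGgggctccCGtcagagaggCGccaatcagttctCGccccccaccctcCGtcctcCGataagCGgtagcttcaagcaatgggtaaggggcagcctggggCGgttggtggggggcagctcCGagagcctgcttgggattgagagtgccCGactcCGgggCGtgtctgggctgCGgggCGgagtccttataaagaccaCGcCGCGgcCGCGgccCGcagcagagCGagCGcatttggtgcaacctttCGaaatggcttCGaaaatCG
CG occurred 10 times in the Zrsr1 window, 26 times in Plagl1, 17 times in Mest, 13 times in Peg3, 9 times in Kcnq1ot1 and 26 times in Phlda2, against a median of 7 over all 32851 windows. The hexamer TGCCGC, which ZFP57 binds when it is methylated, was searched as TGCCGC and GCGGCA, which covers both strands. It had 2 matches in the Mest window, 1 in the Plagl1 window and none in the windows of Zrsr1, Peg3, Kcnq1ot1 and Phlda2. With windows that overlap on a strand counted once, since genes such as Snrpn and Snurf share one, 10 of 43 windows of the 30 genes held it, 23.3%, against 11.4% of all 30746 windows counted so. The 43 windows also held more CG, with a median of 15.

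No imprinted gene passed the test. Of the 40 genes, 35 passed the filter on low counts, and edgeR's quasi-likelihood test called 0 of them higher and 0 lower in knockdown cells, with a Benjamini-Hochberg adjusted p of 0.05 as the threshold. Over all 16209 tested genes it called 1.43%, with 0.876% higher and 0.555% lower. At an unadjusted p below 0.05 the same test gave 11 higher (31.4%) and 4 lower (11.4%), against 11% higher, 8.58% lower and 19.6% in either direction over all tested genes. With DESeq2 7 were higher (Peg10, Sgce, Kcnq1ot1, Plagl1, Impact, Zrsr1 and Peg13) and 1, Phlda2, lower, where that tool called 3.81% of all genes higher and 3.02% lower. With edgeR's likelihood ratio test 7 were higher and 1 lower (background 4.91% and 3.17%), with H19 in place of Plagl1. Limma-voom called Peg10 alone, with a log2 fold change of 1.47 (limma adjusted p = 0.049), where it called 1.49% of all tested genes. The smallest adjusted p with the quasi-likelihood test were 0.0539 for Peg13, 0.0556 for Peg10, 0.0557 for Impact and 0.0661 for Zrsr1, all of them paternally expressed. A p that misses the threshold does not show that the levels were the same.

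The paternally expressed genes lay mostly on one side. Of the 21 tested paternal genes 19 had a log2 fold change (knockdown over control) above 0, and in 13 both knockdown libraries lay above both controls. Of the 14 tested maternal genes 5 had a value above 0, and 3 had both knockdown libraries above both controls. Over all tested genes 50.5% had a value above 0 and 27.3% had both knockdown libraries above both controls, and in 51.9% the groups did not overlap in either direction. A list of neighbours of the clusters held genes not usually counted as imprinted in embryonic cells, whatever their state in other tissues. Of its 26 tested genes 19 had a value above 0 and 8 had both knockdown libraries above both controls. The median log2 fold change was 0.92 for the paternal and -0.19 for the maternal genes, against 0.01 over all tested genes. Without control replicate 2 the paternal median was 0.29, and without control replicate 1 it was 0.87. The number of paternal genes above 0 also depended on control replicate 2. Without that library, the paternal genes Peg12, Nnat, Nespas, Mcts2, Gab1 and Sfmbt2 changed sign and lay between -0.23 and -0.03. Both knockdown libraries lay below both controls in 2 paternal genes (Usp29 and Slc38a4) and 3 maternal genes (Phlda2, Slc22a18 and Commd1), where 24.6% of all tested genes did so. These are descriptions of genes chosen with earlier results of these data known, and no test was made of the difference between paternal genes and maternal genes or neighbours.

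**Figure D1:**
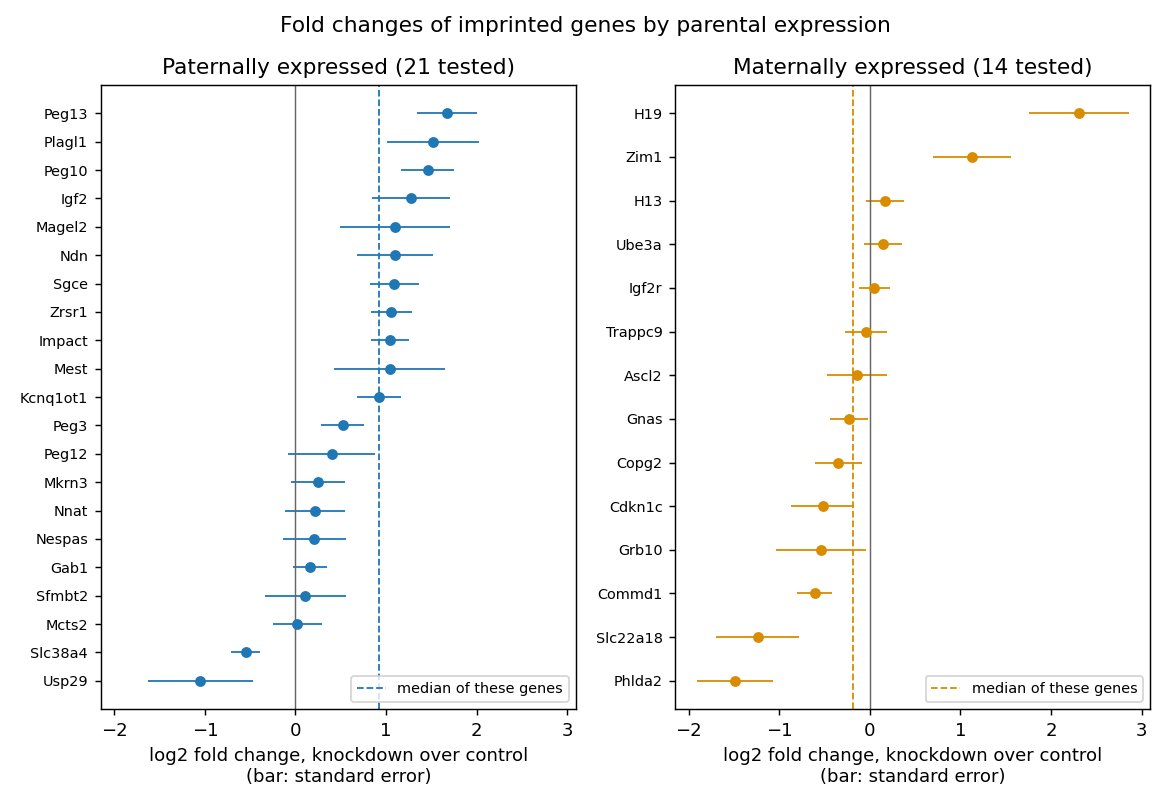
Log2 fold changes of the 35 tested imprinted genes, knockdown over control, with their standard errors, in paternally expressed genes on the left and maternally expressed genes on the right; dashed lines are the medians, 0.92 and -0.19. The paternal genes run from Usp29 at -1.05 to Peg13 at 1.67, and the maternal genes from Phlda2 at -1.49 to H19 at 2.31.

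Depth was similar in all libraries, with 18592224 and 16383323 counts in the knockdown libraries and 19867689 and 19044832 in the controls. The cells carried the marker genes of embryonic stem cells, with a summed level of 8 markers of 5350 and 5730 CPM (the count of a gene scaled to the total of its library) in the knockdown libraries and 6850 and 7180 CPM in the controls. Of these 8 markers 1 was called: Tdgf1, a Nodal co-receptor gene, fell to 571 and 602 CPM in the knockdown libraries, against 1130 and 1550 CPM in the controls (log2 fold change -1.19, edgeR adjusted p = 0.0438). It missed the threshold without knockdown replicate 1 (-1.16), without knockdown replicate 2 (-1.23) and with library size as the only scaling (-1.15). Fibroblast markers summed to 11.3 and 11.8 CPM in the knockdown libraries, against 23.8 and 33.6 CPM in the controls, with 3 of 8 (Lum, Postn and Fap) at 0 in every library. Of the 4 tested, Thy1 and Pdgfrb lay below both controls in both knockdown libraries, where 24.6% of all tested genes did so. The collagen genes Col1a1 and Col1a2 overlapped between groups. Trophoblast markers summed to 52.3 and 71.8 CPM in the knockdown libraries and 56.1 and 55.3 CPM in the controls. Gata3, named after its values were seen, had 3.14 and 2.80 CPM in the knockdown libraries and 0.476 and 0.467 CPM in controls. It was 6.23-fold higher (edgeR adjusted p = 0.0527), with only 9 counts in each control. The other 5 of the 6 tested trophoblast markers overlapped between groups. Neural progenitor markers summed to 134 and 110 CPM in the knockdown libraries and 112 and 126 CPM in the controls. Primitive endoderm markers summed to 41.5 and 29.2 CPM in the knockdown libraries, against 12.5 and 22.5 CPM in the controls. In 4 of the 7 tested (Gata6, Gata4, Sox17 and Sox7) both knockdown libraries lay above both controls, where 27.3% of all tested genes did so. Dab2, Cubn and Amn overlapped between groups. Of the 7, edgeR called 0, and 3 were higher at its unadjusted p below 0.05, against 11% of all tested genes. In such bulk samples fewer cells of a type and less RNA per cell cannot be told apart.

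**Figure D2:**
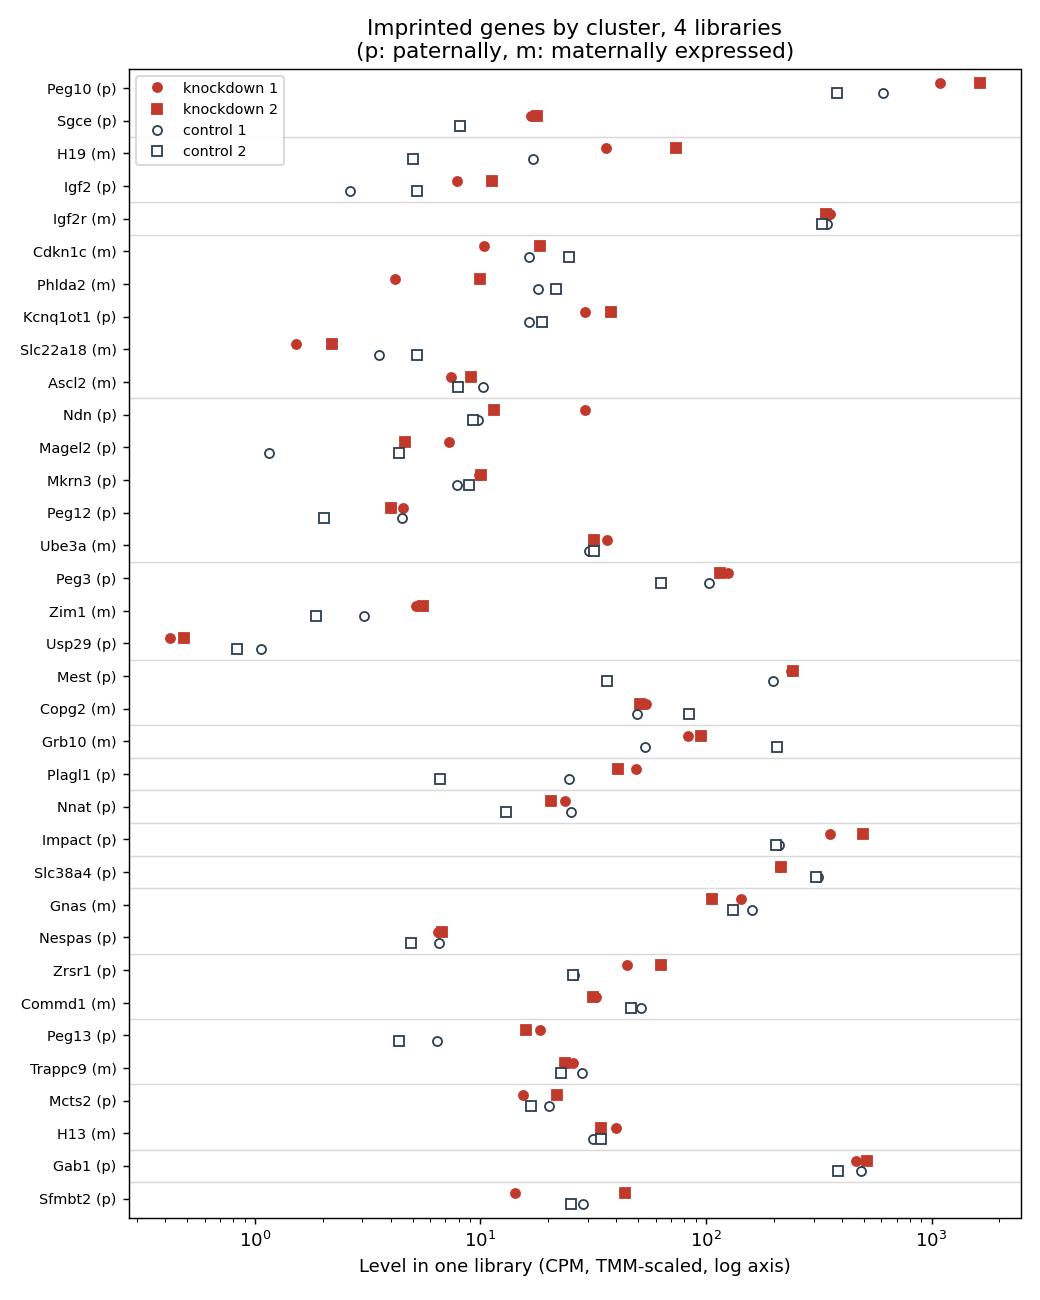
Level of each of the 35 tested imprinted genes in the 4 libraries, in TMM-scaled CPM on a log axis, with knockdown libraries filled above and controls open below; grey lines separate clusters. Peg10 reached 1090 and 1640 CPM in the knockdown libraries against 612 and 381 CPM in the controls, and control replicate 2 (open square) stands apart from control replicate 1 for Mest, Plagl1, Grb10 and H19.

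Peg10 and Sgce lie head to head on chromosome 6, with 102 bases between their starts. Peg10, a gene derived from a retrotransposon that the placenta needs, spans 4747306 to 4760517. It had 1090 and 1640 CPM in the knockdown libraries, against 612 and 381 CPM in the controls, after scaling of the libraries by TMM. Both knockdown libraries lay above both controls, with a log2 fold change of 1.46 (standard error 0.29, edgeR adjusted p = 0.0556), or 2.75-fold. It was called without control replicate 1 at 1.84 and without knockdown replicate 1 at 1.72, whereas it missed the threshold without control replicate 2 (1.11) and without knockdown replicate 2 (1.14). Sgce, which encodes the membrane protein epsilon-sarcoglycan, had 16.8 and 17.8 CPM in the knockdown libraries and 8.14 CPM in each control. The libraries of a group nearly coincided, and the log2 fold change was 1.09 (standard error 0.27, edgeR adjusted p = 0.0899). Per kilobase of exon, the mean Peg10 level was 205 CPM in knockdown cells and 74.5 CPM in controls, and that of Sgce was 1.63 CPM in knockdown cells and 0.767 CPM in controls. The next gene, Casd1, a sialic acid acetyltransferase gene named after its values were seen, had 28.5 and 24.6 CPM in the knockdown libraries and 10.0 and 13.5 CPM in the controls (edgeR adjusted p = 0.0714).

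H19 and Igf2, neighbours on chromosome 7 that share enhancers, are expressed from opposite parental copies. H19, a noncoding RNA (142575530 to 142578146) that hosts a microRNA, had 36.0 and 73.8 CPM in the knockdown libraries, against 17.1 and 5.03 CPM in the controls. The groups did not overlap, but the libraries differed within groups by 2.05-fold among knockdowns and 3.39-fold among controls. The log2 fold change was 2.31 (standard error 0.55, edgeR adjusted p = 0.0796), the highest of the 35. It was called without control replicate 1 at 3.44 and without knockdown replicate 1 at 2.73, and was 1.63 and 1.70 without control or knockdown replicate 2. Igf2, the embryonic growth factor, had 7.90 and 11.3 CPM in the knockdown libraries and 2.64 and 5.24 CPM in the controls. All 4 levels were low, and the log2 fold change was 1.28 (standard error 0.43, edgeR adjusted p = 0.161). Both H19 and Igf2 thus lay higher in both knockdown libraries. In GENCODE M21 Igf2 shares 3596 of its 5723 exon bases with Gm49394 on its own strand. The antisense gene Igf2os, named after its values were seen, shares 98 exon bases with Igf2, 1.71% of those of Igf2. Igf2os had 24 and 22 counts in the knockdown libraries and 0 and 4 in the controls. The strand setting of the counting is not given, so reads in the shared bases cannot be told apart. The primitive endoderm is known to express H19 and Igf2, and its markers, given above, also summed to more in both knockdown libraries. Within groups, knockdown replicate 1 and control replicate 2 had the higher marker sums and the lower H19 levels. For Igf2, knockdown replicate 1 had the lower level and control replicate 2 the higher one. With 2 libraries per group, such orders do not decide whether these markers and the 2 genes go together. The part of these markers in the result was not tested.

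IGF2 signals through IGF1R and is cleared by IGF2R. Igf2r, a maternal gene on chromosome 17 (12682406 to 12769706), had 356 and 339 CPM in the knockdown libraries and 345 and 326 CPM in the controls. The ranges overlapped, and the log2 fold change was 0.05 (standard error 0.17). Airn, the antisense RNA that silences Igf2r on the paternal copy, had 4 and 7 counts in the knockdown libraries and 5 and 0 in the controls and was not tested. Grb10, a maternal adaptor gene whose product restrains insulin and IGF receptors, had 83.5 and 94.7 CPM in the knockdown libraries, between the controls at 53.4 and 206 CPM. Its log2 fold change of -0.54 (standard error 0.50) was -1.21 and called without control replicate 1 (edgeR adjusted p = 0.0189), and 0.69 without control replicate 2 (edgeR adjusted p = 0.105). Its direction therefore depended on which control was kept.

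In a list of partners of IGF signalling 12 of 14 genes were tested, with 1 called higher and 1 lower. Over all tested genes 0.876% were called higher and 0.555% lower. Irs2, an insulin receptor substrate gene, rose 3.05-fold, with 46.1 and 32.5 CPM in the knockdown libraries and 13.2 and 12.6 CPM in the controls (log2 fold change 1.61, standard error 0.26, edgeR adjusted p = 0.0314). Igfbp2, which encodes a secreted protein that binds IGF2, fell to 258 and 267 CPM in the knockdown libraries, against 584 and 659 CPM in the controls (log2 fold change -1.24, standard error 0.18, edgeR adjusted p = 0.0239). Neither call held in every fit with 1 library fewer. Irs2 missed the threshold without control replicate 2 (log2 fold change 1.52) and without knockdown replicate 1 (1.33). Igfbp2 missed it without knockdown replicate 1 (-1.22) and without knockdown replicate 2 (-1.27). The median log2 fold change of the list was -0.03.

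In the Kcnq1 cluster on chromosome 7, 0 of the 5 tested genes were called. The groups did not overlap in 3 of the 5, where this held for 51.9% of all tested genes. Kcnq1ot1, the paternal noncoding RNA of the cluster (143213111 to 143296547), had 29.1 and 37.9 CPM in the knockdown libraries, against 16.5 and 18.8 CPM in the controls. Both knockdown libraries lay above both controls, with a log2 fold change of 0.92 (standard error 0.24, edgeR adjusted p = 0.0941). Phlda2, a maternal gene (143501545 to 143503145) that restrains placental growth, had 4.19 and 9.97 CPM in the knockdown libraries, against 18.0 and 21.6 CPM in the controls. Both knockdown libraries lay below both controls, with a log2 fold change of -1.49 (standard error 0.42, edgeR adjusted p = 0.109), and it was called without knockdown replicate 2 at -2.24 but not without knockdown replicate 1 (-0.99), control replicate 1 (-1.62) or control replicate 2 (-1.40). Slc22a18, a maternal transporter gene, had 1.52 and 2.19 CPM in the knockdown libraries and 3.54 and 5.24 CPM in the controls, a log2 fold change of -1.24 (standard error 0.46, edgeR adjusted p = 0.191). The other maternal genes overlapped between groups. Cdkn1c, which encodes the cyclin-dependent kinase inhibitor p57, had 10.4 and 18.4 CPM in the knockdown libraries and 16.5 and 24.7 CPM in the controls. Ascl2, a transcription factor gene of trophoblast, had 7.43 and 9.12 CPM in the knockdown libraries and 10.3 and 7.99 CPM in the controls. The potassium channel gene Kcnq1 itself had 3 and 1 counts in the knockdown libraries and 2 and 7 in the controls and was not tested. In GENCODE M21 it shares 121 exon bases with Kcnq1ot1. Kcnq1ot1 is a long nuclear RNA and the libraries were made from selected mRNA, so its level of 0.360 CPM per kilobase of exon in knockdown cells and 0.190 in controls is that of the captured part.

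In the chromosome 7 cluster that holds Snrpn and Ube3a, 0 of the 5 tested genes were called. Loss of this cluster on the paternal copy causes Prader-Willi syndrome in humans. Snrpn and Snurf, which share a transcript, had 0 counts in every library. A count of 0 allows up to 3 counts, or 0.161 and 0.183 CPM in the knockdown libraries and 0.151 and 0.158 CPM in the controls, for counting error only. All 216 exon bases of Snurf lie in Snrpn in GENCODE M21, but they are only 10% of the Snrpn exon bases. Snrpn also shares 27.3% of its exon bases with Gm38393, and most of its exon bases lie outside these overlaps. The annotation behind the counts and its treatment of shared reads are not given, so these zeros do not show that the genes were silent. Ndn, a MAGE family gene that encodes necdin, had 29.1 and 11.5 CPM in the knockdown libraries, against 9.72 and 9.23 CPM in the controls. Knockdown replicate 1 alone was far above the controls, and the log2 fold change of 1.10 (standard error 0.42, edgeR adjusted p = 0.207) was 0.27 without it. Magel2, another MAGE family gene, had 7.22 and 4.62 CPM in the knockdown libraries and 1.16 and 4.36 CPM in the controls, and here control replicate 1 stood apart, with a log2 fold change of 1.10 that was 0.44 without it and 2.29 without control replicate 2, not called in either. Mkrn3, a RING finger gene of the same cluster, had 9.84 and 10.1 CPM in the knockdown libraries and 7.87 and 8.87 CPM in the controls. Peg12 had 4.55 and 4.01 CPM in the knockdown libraries and 4.49 and 2.02 CPM in the controls. The ubiquitin ligase gene Ube3a, which is expressed from the maternal copy in neurons, had 36.3 and 32.0 CPM in the knockdown libraries and 30.2 and 31.9 CPM in the controls. The last 3 genes had log2 fold changes of 0.25, 0.40 and 0.14, each smaller than its standard error (0.30, 0.48 and 0.21).

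Peg3 and Usp29 on chromosome 7 have promoter windows on opposite strands that share 263 bases, with starts 164 bases apart. Peg3, a zinc finger gene (6703892 to 6730462), had 125 and 115 CPM in the knockdown libraries, against 103 and 63.3 CPM in the controls, a log2 fold change of 0.52 (standard error 0.24, edgeR adjusted p = 0.284). It was called without control replicate 1, at 0.92, and was 0.16 without control replicate 2. Usp29, a ubiquitin protease gene, was close to the limit of counting, with 8 and 8 counts in the knockdown libraries and 20 and 16 in the controls. Its log2 fold change was -1.05 (standard error 0.58, edgeR adjusted p = 0.364), opposite in sign to that of Peg3. The maternal zinc finger gene Zim1 had 5.18 and 5.59 CPM in the knockdown libraries, against 3.06 and 1.87 CPM in the controls, with a log2 fold change of 1.13 (standard error 0.43, edgeR adjusted p = 0.201). After H19, this was the highest value of a maternal gene.

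Mest and Plagl1, both paternal, differed widely between the controls. Mest, a hydrolase fold gene on chromosome 6 (30733506 to 30748466), had 239 and 244 CPM in the knockdown libraries, against 198 and 36.3 CPM in the controls. Control replicate 1 lay near the knockdown libraries, and control replicate 2 was 5.46-fold below control replicate 1, the widest gap between controls among the 35 genes. The log2 fold change of 1.04 (standard error 0.61, edgeR adjusted p = 0.387) was 0.24 without control replicate 2 and 2.73 without control replicate 1 (edgeR adjusted p = 0.00385). Plagl1, a zinc finger transcription factor gene on chromosome 10 (13090832 to 13131694) that is known to regulate other imprinted genes, had 49.0 and 40.6 CPM in the knockdown libraries, against 24.7 and 6.59 CPM in the controls. The groups did not overlap, and the log2 fold change of 1.52 (standard error 0.51, edgeR adjusted p = 0.159) was 0.81 without control replicate 2 and 2.76 without control replicate 1. Copg2, a coatomer gene that shares 912 exon bases with Mest on the opposite strand, had 54.1 and 51.0 CPM in the knockdown libraries and 49.4 and 84.3 CPM in the controls. Here control replicate 2 was the high one, as it was for Grb10. Nnat, a proteolipid gene, had 23.8 and 20.6 CPM in the knockdown libraries and 25.2 and 13 CPM in the controls.

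Controls differed by more than 2-fold in 6 of the 35 genes (H19, Magel2, Peg12, Mest, Grb10 and Plagl1), 17.1%, where 13.1% of all tested genes did. Knockdown libraries differed by more than 2-fold in 4 (H19, Phlda2, Ndn and Sfmbt2), 11.4%, where 9.11% of all tested genes did. In H19, Peg12, Mest and Plagl1 the lower control was replicate 2, and in Magel2 it was replicate 1.

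**Figure D3:**
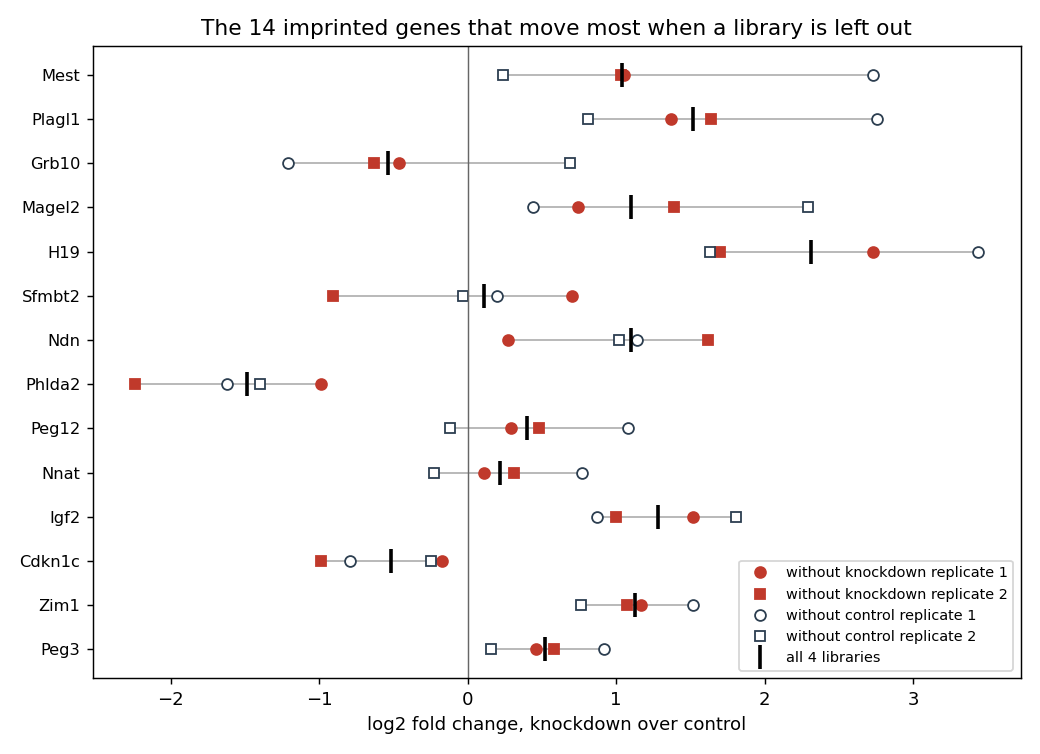
Log2 fold change, knockdown over control, of the 14 imprinted genes whose value moved most when 1 library was left out; symbols name the library left out and the black bar is the value with all 4. Mest runs from 0.24 to 2.73 and Plagl1 from 0.81 to 2.76 with the control that is left out, and Grb10 changes sign, from -1.21 to 0.69.

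Zrsr1, Impact and Peg13 had steadier libraries. Zrsr1, a paternal gene for a splicing factor on chromosome 11 (22972005 to 22976496) that arose by retrotransposition into an intron of Commd1, had 44.8 and 63.4 CPM in the knockdown libraries, against 26.1 and 25.8 CPM in the controls. Both knockdown libraries lay well above the controls, with a log2 fold change of 1.06 (standard error 0.23, edgeR adjusted p = 0.0661). Commd1, the maternal host gene, which acts in copper handling, had 32.5 and 31.6 CPM in the knockdown libraries, against 51.5 and 46.5 CPM in the controls, a log2 fold change of -0.61 (standard error 0.19, edgeR adjusted p = 0.142). The pair thus lay in opposite directions, though the 2 genes share 412 exon bases in GENCODE M21, and reads of Zrsr1 may be shared with its parent gene Zrsr2. Impact, a paternal gene on chromosome 18 whose product restrains the amino acid sensor GCN2, had 354 and 499 CPM in the knockdown libraries and 211 and 204 CPM in the controls (log2 fold change 1.04, standard error 0.21, edgeR adjusted p = 0.0557). Impact at 1.26 and Zrsr1 at 1.28 were called without knockdown replicate 1, and neither was called without knockdown replicate 2, at 0.77 for Impact and 0.79 for Zrsr1.

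Peg13, a paternal noncoding RNA inside the gene Trappc9 on chromosome 15 (72805602 to 72810324), had 18.4 and 15.9 CPM in the knockdown libraries, against 6.45 and 4.36 CPM in the controls. The groups were far apart, with a log2 fold change of 1.67 (standard error 0.33, edgeR adjusted p = 0.0539), or 3.17-fold, and a range of 1.36 to 1.97 when any 1 library was left out. It was called in that range only without control replicate 1. Trappc9, which encodes a subunit of a vesicle tethering complex, had 25.8 and 23.6 CPM in the knockdown libraries and 28.1 and 22.8 CPM in the controls, a log2 fold change of -0.04 (standard error 0.23). So the noncoding RNA and the gene around it had different values. Mcts2, a paternal retrogene for a translation factor inside H13, had 15.5 and 21.8 CPM in the knockdown libraries and 20.1 and 16.8 CPM in the controls, and H13, a signal peptide peptidase gene, had 39.8 and 34.2 CPM in the knockdown libraries and 31.7 and 34.3 CPM in the controls. Reads of Mcts2 may be shared with its parent gene Mcts1. Both overlapped between groups, with log2 fold changes of 0.02 and 0.17.

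At the Gnas locus on chromosome 2, Gnas, which encodes the stimulatory G protein alpha subunit, had 143 and 106 CPM in the knockdown libraries and 160 and 132 CPM in the controls. Its paternal antisense RNA Nespas had 6.49 and 6.75 CPM in the knockdown libraries and 6.55 and 4.93 CPM in the controls. Both overlapped between groups, with log2 fold changes of -0.23 and 0.21, and they share 988 exon bases. Slc38a4, Gab1 and Sfmbt2 are of the class silenced on the maternal copy by histone methylation in early embryos, which was not measured in these cells. Slc38a4 is an amino acid transporter gene on chromosome 15 (96994816 to 97055956). It had 212 and 214 CPM in the knockdown libraries, against 315 and 309 CPM in the controls. Its libraries nearly coincided within groups and the log2 fold change was -0.55 (standard error 0.16, edgeR adjusted p = 0.123). Gab1, a docking protein gene of growth factor signalling and, per kilobase of exon, the most abundant of the 35 in the controls, had 463 and 518 CPM in the knockdown libraries and 489 and 386 CPM in the controls. Sfmbt2, a Polycomb gene, had 14.3 and 43.8 CPM in the knockdown libraries, on either side of the controls at 28.5 and 25.2 CPM. Its log2 fold change of 0.11 was -0.91 without knockdown replicate 2 and 0.70 without knockdown replicate 1. Dcn, which encodes the matrix proteoglycan decorin and is imprinted in placenta, had 0 and 1 counts in the knockdown libraries and 0 in both controls.

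Of 19 listed genes that keep imprints in place all were tested, with 0 called by edgeR in either direction. Their median log2 fold change was -0.24. At its unadjusted p below 0.05 edgeR gave 0 higher and 3 lower, against 11% higher and 8.58% lower over all tested genes. In 7 of the 19 both knockdown libraries lay below both controls, where 24.6% of all tested genes did so. In 4 they lay above them, against 27.3% of all tested genes. The 3 lower ones, named after their values were seen, were Uhrf1, which guides DNMT1 to DNA, Cbx3, which encodes a heterochromatin protein, and Naa10, an acetyltransferase gene. Uhrf1 had 406 and 354 CPM in the knockdown libraries and 737 and 507 CPM in the controls (log2 fold change -0.71, standard error 0.22, edgeR adjusted p = 0.138). The log2 fold change was -0.60 for Cbx3 (edgeR adjusted p = 0.112) and -0.51 for Naa10 (edgeR adjusted p = 0.218). Trim28, the corepressor, was the most abundant, with 2130 and 1900 CPM in the knockdown libraries and 2460 and 1890 CPM in the controls (log2 fold change -0.11, edgeR adjusted p = 0.82). Zfp57, the zinc finger gene that recognizes methylated control regions, had 635 and 759 CPM in the knockdown libraries and 575 and 626 CPM in the controls (log2 fold change 0.21, standard error 0.19, edgeR adjusted p = 0.567). Among 26 tested genes that neighbour the clusters and are not usually counted as imprinted in embryonic cells, edgeR called 0. At its unadjusted p below 0.05 it gave 4 higher and 1 lower, against 11% higher and 8.58% lower over all tested genes. The median log2 fold change of these neighbours was 0.11. Their 2 most abundant members were Cd81, a tetraspanin gene, at 368 and 350 CPM in the knockdown libraries and 254 and 211 CPM in the controls (log2 fold change 0.63, edgeR adjusted p = 0.113), and Ago2, an Argonaute gene, at 269 and 302 CPM in the knockdown libraries and 277 and 251 CPM in the controls (log2 fold change 0.11, edgeR adjusted p = 0.768).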

How the data were processed

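The table the authors deposited holds raw counts for 4 libraries with no normalization. Per the submitters' processing notes, cutadapt, HISAT2 and featureCounts were used on mm10. Their versions, the annotation behind the counts, the strand option and how reads falling in several genes were handled are not given. Per the labels' protocols, DNase-treated RNA went into an mRNA library kit. Of 36068 rows, 92 spike-in rows held 0 counts and were left out.

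In R 4.3.3, the low-count filter of edgeR 4.0.16 (filterByExpr) left 16209 genes and removed 19767. TMM factors were 1.03 and 1.01 (knockdown) and 0.954 and 1.01 (control). All remaining genes entered 1 quasi-likelihood fit in edgeR with group as its only term; Benjamini-Hochberg adjustment covered the whole table, and adjusted values below 0.05 count as called. Standard errors are the absolute log2 fold change divided by the root of the F statistic. The biological coefficient of variation was 24.9%. Replicates differed beyond sampling noise (chi-square over its degrees of freedom 19.7 for knockdown, 42.3 for control) and each library is 1 replicate. Gene levels in CPM are scaled by TMM; summed marker levels use library totals alone.

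Positions came from the RefSeq table of GRCm38.p6, and exon lengths and overlaps from GENCODE M21, which may differ from the annotation used for counting. The text names the 40 imprinted genes. From other lists it names up to 4 called genes or, with none called, the 2 most abundant ones of the pathway lists. Casd1, Igf2os, Uhrf1, Cbx3, Naa10, Gata3 and the endoderm and fibroblast markers were named outside this rule, after their values were seen. The members and lists were chosen with earlier results of these data known. Alternatives were other scalings and filters, DESeq2 1.42.0, limma-voom with limma 3.58.1, a replicate block, the likelihood ratio test, thinning to the shallowest library and leaving out each library; with 1 library left out, the fit takes the remaining single library to vary as the intact group does. The procedure was tested on simulated data.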

Additional observations from a re-analysis of the deposited data

How the results depend on the processing

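The counts of called genes depended on the tool and the filter. Without a filter beyond a count above 0, 996 genes were higher and 721 lower, with DESeq2 617 and 490, and with the likelihood ratio test 796 and 514, against 142 and 90 as reported. For the imprinted genes these settings gave 11, 7 and 7 higher and 1 lower each. Limma-voom gave 1 higher, where it called 1.49% of all tested genes. Without the filter 38 of them and 26525 genes in all were tested, of which 6.47% were called. With library size as the only scaling 57 genes were lower. The replicate number as a block gave 428 genes higher and 228 lower, with 6 imprinted genes higher and 1 lower where 4.05% of all genes were called. Deviations of same-numbered libraries had a correlation of -0.0519 across genes. A single value over all genes cannot tell whether such libraries share a culture or a preparation, and the labels do not say. Without 1 library, 108 to 389 genes were higher and 45 to 198 lower, with 0 to 6 imprinted genes higher and 0 to 1 lower. The median log2 fold change ran from 0.13 to 0.34 for the imprinted genes, from 0.29 to 0.87 for the paternal and from -0.17 to -0.02 for the maternal genes in these fits. The maternal median was -0.21 with RLE factors, DESeq2 and thinned libraries, -0.22 with upper quartile scaling, -0.13 with library size only and -0.20 without the filter.

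Some imprinted genes changed sign, and none of them was called in both directions. Without 1 library, Igf2r ran from -0.04 to 0.09, Ascl2 from -0.37 to 0.05, Peg12 from -0.12 to 1.08, Copg2 from -0.68 to 0.04, Grb10 from -1.21 to 0.69, Nnat from -0.23 to 0.77, Nespas from -0.04 to 0.42, Trappc9 from -0.24 to 0.11, Mcts2 from -0.24 to 0.24, Gab1 from -0.05 to 0.34 and Sfmbt2 from -0.91 to 0.70. Trappc9 was 0.01 with library size only. Mcts2 was -0.01 with RLE factors, upper quartile scaling, DESeq2 and limma-voom, and 0 without the filter and in thinned libraries. Sfmbt2 was -0.13 with limma-voom and -0.09 with the replicate block. The causes were not tested.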
